A study of Mus musculus with 4 samples.

Results

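Feedback inhibitors of the ERK pathway were followed in mouse embryonic stem cells of the E14 line that had undergone RNA interference (RNAi) against Npac or control RNAi. The current symbol of Npac is Glyr1, and its protein binds chromatin carrying methylated histone H3. The inhibitors were the Sprouty genes Spry1, Spry2 and Spry4, the Spred genes Spred1 and Spred2, and the phosphatase genes Dusp1, Dusp4, Dusp5, Dusp6 and Dusp7. Every probe set whose only gene symbol in the array annotation was one of these 10 names was taken, which gave 27 of 45037 probe sets. A probe set is a group of short oligonucleotides on the array that reports 1 transcript or a few related ones. All 10 genes were represented, Spred1 by 8 probe sets, Spred2 by 5, Spry4 by 4, Dusp7 by 3, Spry2 by 2 and the others by 1 each. Probe sets of a gene share a target and were not treated as replicates.

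The study held 4 Affymetrix arrays, 2 of Npac RNAi cells and 2 of control RNAi cells. Both groups grew with 15% serum and with LIF at 1000 units per ml, a cytokine that holds these cells undifferentiated. Npac RNAi cells received a short hairpin RNA against Npac by lipid transfection, and puromycin selection for 3 days began 24 hours later; the control RNAi cells are described as selected for as long. The labels used here give neither hairpin's sequence, nor its promoter, nor the target of the control hairpin, and nothing in them says that replicate arrays came from separate cultures, so p-values measure only the spread between these arrays.

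ERK signalling starts when a growth factor such as FGF4 binds a receptor tyrosine kinase on the cell surface. Adaptor proteins then activate RAS, which starts the kinase chain of RAF, MEK and ERK. Active ERK switches on transcription of its own inhibitors. Sprouty proteins act upstream, at the receptor adaptors and RAF, and Spred proteins restrain RAS and RAF at the membrane. The Dusp proteins remove phosphate from the kinase itself, Dusp1, Dusp4 and Dusp5 in the nucleus and Dusp6 and Dusp7 in the cytoplasm. Dusp5, Dusp6 and Dusp7 favour ERK, whereas Dusp1 and Dusp4 also act on the stress kinases p38 and JNK. In mouse embryonic stem cells FGF4 is the main source of ERK activity, and that activity favours exit from the undifferentiated state.

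Values are log2 expression values from the deposited table, and a log2 difference is Npac RNAi minus control RNAi. A probe set was called higher or lower when its adjusted p in limma, fitted and adjusted over all 45037 probe sets, was under 0.05. Of all probe sets 28.2% were called, 14.2% higher and 14% lower. Among genes, each read by its brightest probe set over the 4 arrays, 33.9% were called, 19.3% higher and 14.6% lower. The targeted gene Glyr1 stood at 46.9% of its control level (limma adjusted p = 0.00171, log2 difference -1.09, SE 0.0554, n = 2 per group). Across probe sets the correlation was 0.998 between replicate arrays and 0.987 to 0.989 between arrays of the 2 groups. Because arrays were normalised to each other before deposit, a difference is relative to most other transcripts. All 24 probe sets for poly-A spike-in transcripts were higher in Npac RNAi, by a mean of 0.54. A rise under 0.54 thus turns into a fall when arrays are scaled on them. These probe sets report only the Dap, Lys, Phe and Thr transcripts and are not independent of each other. Whether equal amounts were added to each sample was not tested.

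Markers of the labelled cell type had high signals, though some markers of other lineages did too. The brightest trophectoderm and primitive endoderm markers stood at the 99th and 97.3th percentiles of probe sets. All 9 measured embryonic stem cell markers had signals at or above the 87.9th percentile of probe sets, among them Pou5f1, Sox2 and Nanog. Of these 9 markers 7 were called lower in Npac RNAi, Pou5f1 (-1.17, limma adjusted p = 0.00162) and Nanog (-0.48, limma adjusted p = 0.00992) among them, and Sox2 was at -0.14 without a call. Of 10 trophectoderm markers 9 were called higher and 0 lower (limma; at an unadjusted p under 0.05 none was lower either), and their mean log2 level was 10.04 and 10.07 on the Npac RNAi arrays, against 8.45 and 8.41 on the control arrays. Of 10 primitive endoderm markers 3 were higher and 1 lower, with means of 9.16 and 9.21 in Npac RNAi and 9.02 and 8.95 in control RNAi. The 9 measured fibroblast markers were dim, none above the 60.2th percentile, with 1 called higher and 0 lower. They averaged 5.40 and 5.34 in Npac RNAi and 5.42 and 5.35 in control RNAi. Of all genes 19.3% were called higher and 14.6% lower, so the primitive endoderm and fibroblast counts are near those shares. The changes of stem cell and trophectoderm markers went along with every difference below, and their part in it was not tested. In such bulk RNA, a change in the share of cells of a type cannot be told apart from a change in RNA per cell.

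The feedback inhibitors did not move as a block. The nuclear phosphatase genes Dusp1, Dusp4 and Dusp5 rose 2.50-fold, 1.95-fold and 1.67-fold in Npac RNAi cells. Spry4 and Spry2 fell 1.93-fold and 1.38-fold. Spry1, Spred1, Spred2, Dusp6 and Dusp7 lay between -0.20 and -0.05 by their brightest probe sets and were not called. By brightest probe set 3 of 10 genes were thus called higher and 2 lower, against 19.3% and 14.6% of all genes. With 10 genes, both counts are near those shares. The median log2 difference of the 10 was -0.14, against -0.04 for all 18193 genes. Groups did not overlap for 23 of the 27 probe sets, 5 with Npac RNAi above and 18 with it below, against 69% of all probe sets, 28% above and 41.1% below. Over all 27 probe sets 4 were called higher and 9 lower, against 14.2% and 14% of all probe sets. The 4 higher ones are near that share. Their median over the 27 was -0.16, against -0.06 for all probe sets. A rise of at least 1.5-fold with a call was seen for 3 of the 10 genes and for 8.07% of all genes, and a fall of that size for 1 of the 10 and for 2.03% of all genes.

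**Figure D1:**
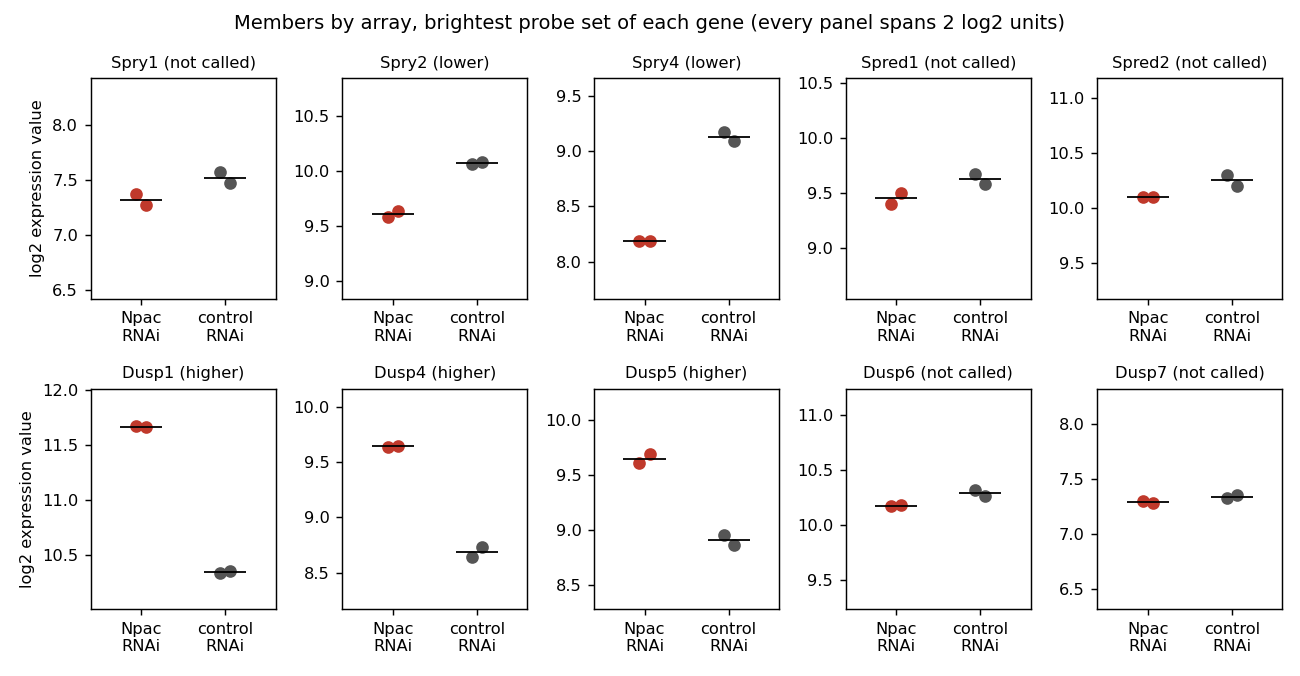
The log2 expression value of each feedback inhibitor by its brightest probe set is plotted for the Npac RNAi arrays (left, red) and the control RNAi arrays (right, grey), with a bar at each group mean and 2 log2 units on every vertical axis. Dusp1, Dusp4 and Dusp5 sit higher in Npac RNAi by 1.32, 0.96 and 0.74, Spry4 and Spry2 lower by -0.95 and -0.46, and the other 5 genes differ by at most -0.20.

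Dusp1, an immediate early gene induced by growth factors and by stress, had the largest difference of the 10. It read 11.67 and 11.66 on the Npac RNAi arrays, against 10.34 and 10.35 on the control arrays. The groups were more than 1 log2 unit apart while replicates differed by 0.01 (log2 difference 1.32, SE 0.0548, 95% interval 1.18 to 1.47, limma adjusted p = 0.00124, n = 2 per group). Of all genes 1.37% had a larger difference. The call held under all 16 other settings tried, at 0.78 with spike-in scaling.

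Dusp4, a nuclear phosphatase induced by sustained ERK activity, read 9.64 and 9.65 in Npac RNAi, against 8.64 and 8.73 in control RNAi. Both Npac RNAi arrays lay above both control arrays and replicates were much closer to each other than to the other group (0.96, SE 0.0632, limma adjusted p = 0.00264). With spike-in scaling its difference was 0.42, and it missed the threshold only without variance moderation (adjusted p = 0.0516, range over the settings 1.72e-06 to 0.0516).

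Dusp5, which anchors ERK in the nucleus as well as inactivating it, read 9.61 and 9.69 in Npac RNAi, against 8.96 and 8.87 in control RNAi. The groups did not overlap (0.74, SE 0.0677, limma adjusted p = 0.00504). Its call was lost without control array 2 (0.69, adjusted p = 0.0518), without moderation (adjusted p = 0.0668) and with spike-in scaling (0.20, adjusted p = 0.0806, the highest over the settings). Each of these 3 phosphatase genes rested on a single probe set.

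Promoter windows from RefSeq (GRCm38.p6, 250 bases before to 50 after the annotated start) were matched by symbol for 8 of the 10 genes. Spry4, which was called lower, and Dusp4, which was called higher, had no window. The windows of Dusp1 and Dusp5, which rose, are shown with those of Spry2, which fell, and Dusp6, which was not called, to set the letters beside the responses. Capitals mark matches, on either strand, to the core of the cyclic AMP response element (TGACGT), the AP-1 element (TGANTCA), an ETS element (CGGAAG) and the CArG box bound by serum response factor.
Dusp1, chr17:26508423-26508722, minus strand: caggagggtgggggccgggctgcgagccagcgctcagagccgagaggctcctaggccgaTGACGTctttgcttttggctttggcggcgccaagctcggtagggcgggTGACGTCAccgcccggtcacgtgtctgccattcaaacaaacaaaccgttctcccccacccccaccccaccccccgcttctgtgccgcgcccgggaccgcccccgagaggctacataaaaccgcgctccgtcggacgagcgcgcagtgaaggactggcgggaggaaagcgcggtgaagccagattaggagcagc
Dusp5, chr19:53528895-53529194, plus strand: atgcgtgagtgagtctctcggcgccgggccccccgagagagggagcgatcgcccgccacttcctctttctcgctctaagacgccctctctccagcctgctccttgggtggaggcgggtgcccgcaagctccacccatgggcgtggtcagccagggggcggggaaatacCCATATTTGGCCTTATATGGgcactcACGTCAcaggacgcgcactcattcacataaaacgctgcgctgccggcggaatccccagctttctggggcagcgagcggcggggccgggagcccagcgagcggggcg
Spry2, chr14:105896770-105897069, minus strand: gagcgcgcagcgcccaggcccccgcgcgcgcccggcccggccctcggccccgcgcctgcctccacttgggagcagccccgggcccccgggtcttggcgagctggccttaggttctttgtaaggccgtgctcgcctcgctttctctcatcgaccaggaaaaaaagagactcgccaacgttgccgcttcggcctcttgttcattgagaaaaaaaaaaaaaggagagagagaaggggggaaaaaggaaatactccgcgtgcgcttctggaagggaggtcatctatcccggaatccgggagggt
Dusp6, chr10:99262981-99263280, plus strand: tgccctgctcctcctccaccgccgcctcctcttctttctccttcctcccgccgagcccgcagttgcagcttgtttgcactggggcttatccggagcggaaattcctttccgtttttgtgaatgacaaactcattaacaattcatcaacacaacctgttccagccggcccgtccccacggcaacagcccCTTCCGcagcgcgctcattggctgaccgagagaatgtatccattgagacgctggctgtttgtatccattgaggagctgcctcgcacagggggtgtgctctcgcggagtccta

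The Dusp1 window held the TGACGT core in 2 places, bases -191 to -186 and, as the overlapping forward and reverse matches of the full palindrome, bases -143 to -136, counting the annotated start as +1. In the Dusp5 window the same core stood at -56 to -51, next to CArG boxes at -82 to -73 and -72 to -63. No match fell in the Spry2 window, and the Dusp6 window had 1 ETS match, at -62 to -57. Among the other member windows Spred2 held the TGACGT core and an ETS match, Spred1 held 2 ETS matches, and Spry1 and Dusp7 had none. Of 32851 windows of this length, 7.51% held the TGACGT core, 7.81% the AP-1 element, 16.9% the ETS element and 1.63% a CArG box, against 3, 0, 3 and 1 of the 8 member windows. The motifs were picked with the responses known. A match is a description of the letters and not a binding site.

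Dusp6 and Dusp7, whose proteins act in the cytoplasm, were not called by any of their 4 probe sets. Dusp6, the ERK-selective phosphatase often used as a readout of FGF signalling, read 10.17 and 10.18 in Npac RNAi, against 10.32 and 10.26 in control RNAi. Both Npac RNAi arrays were slightly below both control arrays, and the difference was not called (-0.12, SE 0.0584, 95% interval -0.27 to 0.04, limma adjusted p = 0.189). An increase of the size seen for Dusp5 lies outside that interval. The gap between the log2 differences of Dusp1 and Dusp6 was 1.44, and those of Dusp4 and Dusp5 to Dusp6 were 1.08 and 0.85, all untouched by a shift common to an array. The gaps between genes were not tested.

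Dusp7, a close relative of Dusp6, was read by 3 probe sets, none of them called. Its brightest one gave 7.30 and 7.28 in Npac RNAi and 7.33 and 7.35 in control RNAi, a small offset without overlap (-0.05, 95% interval -0.20 to 0.09, limma adjusted p = 0.50). The other probe sets gave -0.19 (limma adjusted p = 0.0624) and 0.00 (adjusted p = 0.994). With arrays centred on the median of genes, a shift of -0.14, Dusp6 (-0.26) and the brightest Dusp7 probe set (-0.19) were called lower, as they were with spike-in scaling (-0.66 and -0.59). On the deposited scale Dusp6 was called lower when the prior variance followed the signal level (-0.12, limma adjusted p = 0.0465), and the Dusp7 probe set 1452097_a_at when dim probe sets were left out (-0.19, adjusted p = 0.0154). Whether Dusp6 and Dusp7 were called lower thus depended on the scaling, the variance model and the filter, and neither was higher under any setting by these probe sets.

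Sprouty probe sets read lower in Npac RNAi throughout. All 7 of their probe sets had both Npac RNAi arrays below both control arrays, as did 41.1% of all probe sets, and 6 of the 7 were called lower, against 14% of all probe sets. These 6 came from 2 genes, Spry2 with 2 and Spry4 with 4. Spry4, an inhibitor of RAF activation that is induced by FGF, read 8.19 and 8.19 in Npac RNAi by its brightest probe set, against 9.18 and 9.09 in control RNAi. That is 51.8% of the control level (-0.95, SE 0.0629, 95% interval -1.11 to -0.78, limma adjusted p = 0.00268), and 0.39% of all genes had a more negative difference. The other 3 Spry4 probe sets fell by 0.64, 0.55 and 0.40 on the log2 scale, so direction was shared while the size varied. The weakest, 1422020_at, lost its call without any 1 array (adjusted p up to 0.0809), 1422021_at without Npac RNAi array 2 or control array 1 (up to 0.0641) and 1440867_at without array 2 of either group (up to 0.0596). The mean of all its probe sets gave -0.63. The brightest one kept its call without any 1 array (adjusted p at most 0.0357) and lost it only without moderation (0.0515).

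Spry2, which blocks the pathway at the adaptor Grb2 and at RAF and is itself controlled by phosphorylation, read 9.58 and 9.64 in Npac RNAi, against 10.07 and 10.08 in control RNAi. The arrays of the groups were well separated (-0.46, SE 0.0589, limma adjusted p = 0.00975). Its other probe set gave nearly the same value, -0.44 (limma adjusted p = 0.0122). Neither probe set kept its call when any 1 array was left out, with adjusted p from 0.0557 to 0.0713 for the brightest, with differences of -0.50 to -0.43 and a range of adjusted p over all settings of 4.48e-05 to 0.0713.

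Spry1, best known for restraining GDNF signalling in the developing kidney, read 7.37 and 7.27 in Npac RNAi and 7.57 and 7.47 in control RNAi. Both Npac RNAi arrays were below both control arrays, and the difference was not called (-0.20, 95% interval -0.39 to -0.01, limma adjusted p = 0.106). It was called lower when dim probe sets were left out (-0.20), after a further quantile normalization (-0.28), after centring on genes (-0.34) and with spike-in scaling (-0.74).

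**Figure D2:**
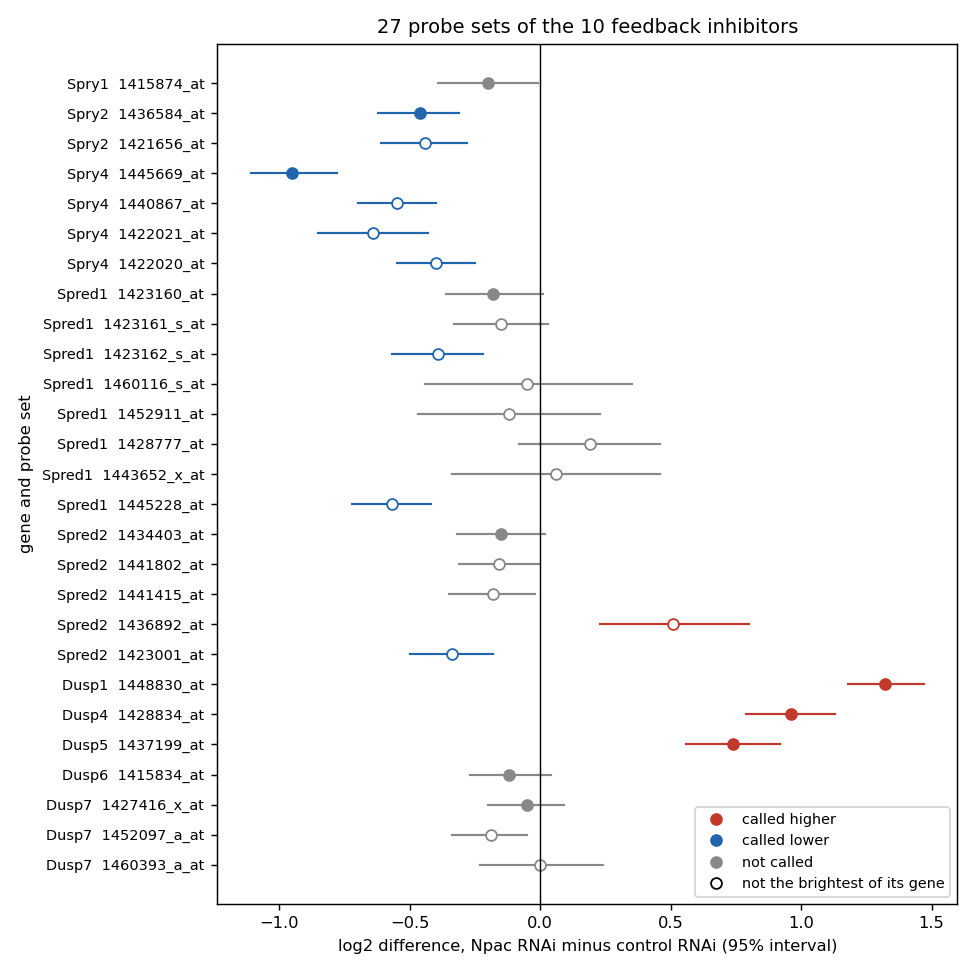
Each of the 27 probe sets is drawn as its log2 difference, Npac RNAi minus control RNAi, with its 95% interval, grouped by gene and coloured by its call; filled points are the brightest probe set of a gene. The 7 Sprouty probe sets lie left of 0 (-0.95 to -0.20) and Dusp1, Dusp4 and Dusp5 right of it (0.74 to 1.32), while Spred1 and Spred2 probe sets lie on both sides (-0.57 to 0.51).

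Spred genes gave no common answer across their probe sets. Of 13 probe sets 3 were called lower, 1 was called higher and 9 were not called. Of all probe sets 14% were lower and 14.2% higher, 28.2% together, so the number of Spred calls is near that share. Spred1, mutated in a human syndrome resembling neurofibromatosis, read 9.40 and 9.50 in Npac RNAi and 9.67 and 9.58 in control RNAi by its brightest probe set. This small offset was not called (-0.18, 95% interval -0.36 to 0.01, limma adjusted p = 0.131). The same probe set was called lower after a further quantile normalization (-0.28), after centring on genes (-0.32) and with spike-in scaling (-0.71). It was also called lower when the prior variance followed the signal level (-0.18). The probe set 1423162_s_at was called lower (-0.39, limma adjusted p = 0.0186), and lost that call without any 1 array (adjusted p up to 0.0965, and up to 0.103 over all settings). The other call on Spred1, 1445228_at at -0.57, came from a probe set with a signal at the 7.02th percentile and identical values on the Npac RNAi arrays, so its SE was set mainly by the prior variance. Its call was lost without control array 2 (adjusted p = 0.0559, the highest over the settings). The remaining 5 Spred1 probe sets lay between -0.15 and 0.19 and 3 of them had overlapping groups.

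Spred2, which binds neurofibromin and keeps RAS inactive, read 10.10 and 10.10 in Npac RNAi and 10.30 and 10.20 in control RNAi by its brightest probe set, without a call (-0.15, 95% interval -0.32 to 0.02, limma adjusted p = 0.143). That brightest probe set was called lower under 3 other settings, spike-in scaling among them (-0.69). The probe sets of Spred2 disagreed in sign. The probe set 1423001_at was lower (-0.34, limma adjusted p = 0.0219), and 1436892_at was higher, at 7.37 and 7.33 in Npac RNAi against 6.97 and 6.70 in control RNAi (0.51, SE 0.107, limma adjusted p = 0.030). The control arrays of 1436892_at differed by more than those of any other Spred2 probe set. Its call was lost without either Npac RNAi array (adjusted p = 0.107 and 0.116) and without control array 2 (0.38, adjusted p = 0.0844), and its value was -0.02 with spike-in scaling (adjusted p = 0.835). The call on 1423001_at was lost without any 1 array (adjusted p from 0.0751 to 0.111, the highest over the settings). Which transcripts of Spred1 and Spred2 each probe set reports is not given in the tables used here, and probe sets ending in _s_at or _x_at may bind several transcripts.

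Other genes of the pathway were read from 4 lists with 83 measured members. Of these 36 were called higher and 11 lower, and the median log2 difference was 0.24; with spike-in scaling 15 were higher and 43 lower. Over all genes 19.3% were called higher and 14.6% lower, so the 11 lower genes are near the share over all genes. Spike-in scaling took 0.54 off each log2 difference. In the cascade from FGF4 to ERK 20 of 28 listed genes were measured, with 8 higher, 2 lower and a median of 0.21, against 3 higher and 12 lower with spike-in scaling. The receptor genes Fgfr2 (1.09, limma adjusted p = 0.00216) and Fgfr1 (0.83, adjusted p = 0.00594) and the RAS activator Sos2 (0.93, adjusted p = 0.00318) rose. With spike-in scaling they stood at 0.55, 0.29 and 0.39. The mean of a gene's probe sets gave 0.58 for Fgfr2 and 0.63 for Fgfr1. The ligand gene Fgf4 fell, at 10.07 and 10.04 in Npac RNAi against 10.61 and 10.54 in control RNAi (-0.52, limma adjusted p = 0.00819). By the mean of its probe sets Fgf4 stood at -0.39. Sos1 fell too (-0.42, limma adjusted p = 0.0327). The call on Sos1 was lost by the mean of its probe sets (-0.18, adjusted p = 0.13) and without any 1 array (up to 0.14, 0.175 at most), that on Fgf4 without Npac RNAi array 2 or either control array (up to 0.0605, 0.0634 at most), and that on Fgfr1 without either control array (0.0525 and 0.0553, 0.0843 at most).

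Transcripts known to rise with ERK activity were called in both directions. Of 23 measured, 11 were higher and 5 lower, against 19.3% and 14.6% of all genes. The median was 0.33, and with spike-in scaling 7 were higher and 10 lower. Phlda1 (1.64, limma adjusted p = 0.00124), the AP-1 subunit gene Jun (1.30, adjusted p = 0.00145) and the cytokine gene Lif (1.5, adjusted p = 0.00153) rose. By the mean of their probe sets Lif stood at 1.03 and Jun at 1.49. Ier2, an immediate early gene (-0.78, limma adjusted p = 0.00342), the ephrin receptor gene Epha4 (-0.64, adjusted p = 0.00918) and Etv4 (-0.71, adjusted p = 0.0118) fell. Etv4 and its relative Etv5 are ETS factor genes. Whether FGF signalling differed between the groups was not tested. Etv5 and the immediate early gene Egr1 were chosen after their values were seen. Etv5 was lower (-0.39, limma adjusted p = 0.0169) and Egr1, whose groups overlapped, had no call (0.08, adjusted p = 0.435). Further immediate early genes of the list, Fos (0.63), Fosl1 (1.08), Junb (1.07), Ier3 (0.72) and Myc (1.1), were called higher. Egr2 (0.35), Egr3 (-0.4) and Fosb (-0.06) had no call. Leaving out either control array took the call from Etv4 (adjusted p = 0.0732 and 0.0769, 0.12 at most), and Epha4, at -0.41 by the mean of its probe sets, lost its call without Npac RNAi array 2 or control array 2 (0.063 and 0.0616, 0.0958 at most).

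Among 18 measured inhibitors acting on receptors, RAS or RAF, 5 were higher and 3 lower, against 19.3% and 14.6% of all genes. With 18 genes, both counts are near those shares. The median of the list was 0.18, and with spike-in scaling 1 was higher and 11 were lower. Errfi1, a feedback inhibitor of the EGF receptor, rose 2.49-fold (1.31, limma adjusted p = 0.0015). The RAS inactivator Rasa1 (0.62, limma adjusted p = 0.00592) and the phosphatase gene Ptpn12 (0.51, adjusted p = 0.00824) rose less. By the mean of its probe sets Rasa1 stood at 0.46. Rasa3 (-0.85, limma adjusted p = 0.0086), the ubiquitin ligase gene Cbl (-0.41, adjusted p = 0.0157) and the RAF-sequestering Paqr3 (-0.46, adjusted p = 0.0172) fell. Ptpn12 stood at -0.03 and Rasa1 at 0.08 with spike-in scaling, and the calls on Cbl and Paqr3 were lost without any 1 array (adjusted p up to 0.0868 and 0.0803, 0.0913 and 0.117 at most). Rasa1 lost its call without control array 2 (adjusted p = 0.0573, 0.428 at most), Rasa3 without either control array (up to 0.0655, 0.106 at most) and Ptpn12 without Npac RNAi array 2 or either control array (up to 0.0646, 0.787 at most).

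The remaining Dusp-type phosphatase genes were called higher more often than lower as deposited, and lower more often with spike-in scaling. Of 22 measured, 12 were higher and 1 was lower, with a median of 0.31, against 19.3% higher and 14.6% lower over all genes. Dusp9, an ERK-selective cytoplasmic phosphatase of the same subfamily as Dusp6 and Dusp7, read 12.23 and 12.23 in Npac RNAi, against 10.97 and 10.99 in control RNAi (1.25, SE 0.055, limma adjusted p = 0.00135). It thus rose 2.37-fold, by a margin close to that of Dusp1. Dusp14, an atypical phosphatase, rose as much (1.26, limma adjusted p = 0.0014), and Ssh1, which activates the actin-severing protein cofilin, rose by 0.90 (adjusted p = 0.00528), against 0.41 by the mean of its probe sets and 0.36 with spike-in scaling. Dusp28 was the lower one (-0.43, limma adjusted p = 0.0206; lost without Npac RNAi array 2 or either control array, adjusted p up to 0.109, 0.127 at most). With spike-in scaling this list gave 4 higher and 10 lower. Several of the brightest probe sets here, those of Dusp9, Fgf4, Fgfr1 and Fgfr2 among them, end in _s_at or _x_at and may bind related transcripts too.

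**Figure D3:**
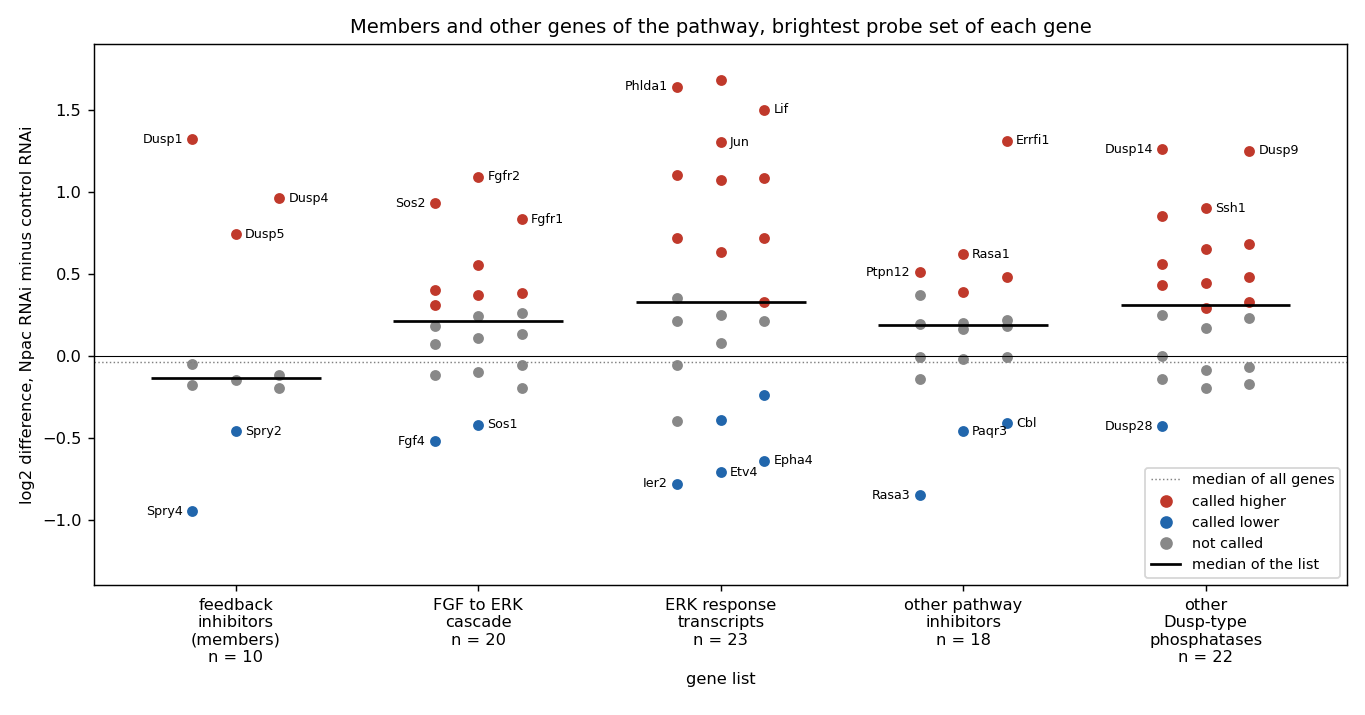
Log2 differences, Npac RNAi minus control RNAi, are plotted for the 10 feedback inhibitors and for 4 other lists of pathway genes, 1 point per gene by its brightest probe set, with a bar at each list's median and a dotted line at the median of all genes (-0.04). The inhibitors have a median of -0.14 with Dusp1, Dusp4 and Dusp5 above it and Spry4 and Spry2 below, and the 4 other lists have medians of 0.18 to 0.33.

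Centring and spike-in scaling shift every gene of an array alike and so keep the order of the 10 differences by construction, whereas quantile normalization moves genes by different amounts. With it Dusp1, Dusp4 and Dusp5 stood at 1.28, 0.86 and 0.63 and Spry4 and Spry2 at -1.07 and -0.55. Dusp1, Dusp4 and Dusp5 stayed above 0 and the other 7 below it under each of the 5 scalings. Shifts of 0.02, -0.14 and -0.54 were too small to carry any of the 10 across 0. Only quantile normalization could thus have turned a sign. The gap between the differences of Dusp1 and Spry4 was 2.27 as deposited. Spike-in scaling left 2 of the 10 genes higher and 7 lower, and centring on the median of genes left 3 higher and 7 lower.

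**Figure D4:**
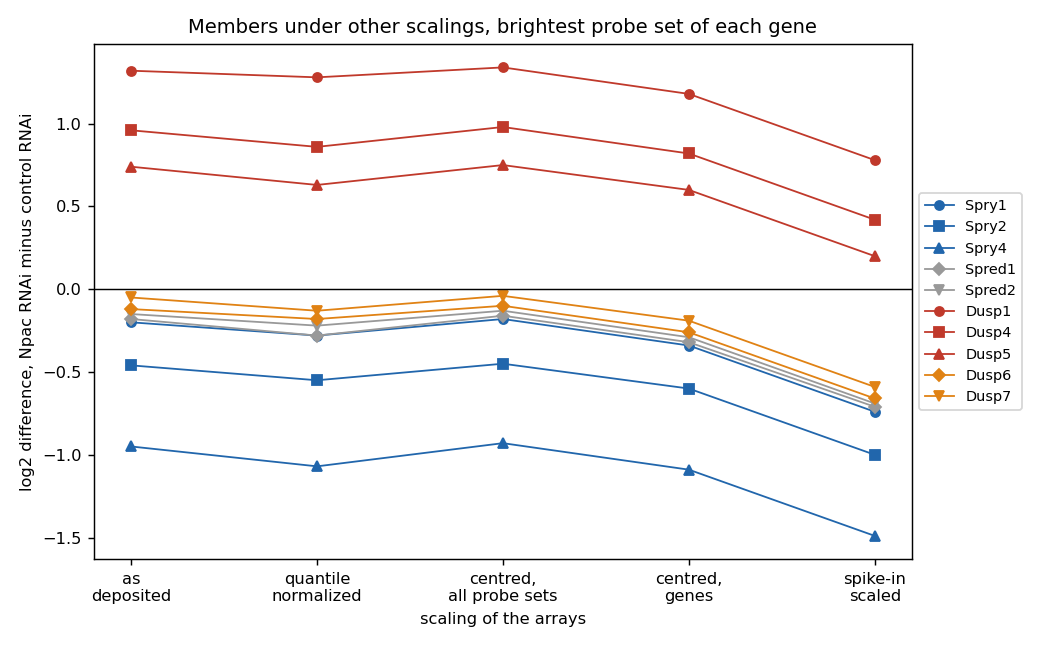
The log2 difference of each feedback inhibitor, Npac RNAi minus control RNAi, is plotted as deposited and under 4 other scalings of the arrays, for the brightest probe set of each gene. Dusp1 runs from 1.32 as deposited to 0.78 with spike-in scaling and Spry4 from -0.95 to -1.49, and no gene crosses 0.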

How the data were processed

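RNA of 4 single-channel Affymetrix arrays was analysed, 2 of Npac RNAi and 2 of control RNAi cells, grouped by their titles; biotin-labelled RNA was made from 5 µg of total RNA. The deposited values are log2 values per probe set and array; RMA is named, without a version, in the submitters' processing notes, and the log2 base was inferred from the values (2.78 to 15.05, array medians 6.41 to 6.44). RMA equalises arrays, so a change shared by most transcripts would not show. The software is not given in the sources used here, and the number of arrays limits the precision.

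Of the probe sets 64 controls were left out. Of the rest 34945 had 1 symbol, 932 several and 9160 none here; 34741 symbols were brought up to date by Entrez identifier from the RefSeq gene table (GRCm38.p6, names only). The comparison used limma (version 3.58.1, R 4.3.3; lmFit and eBayes with group as the only term, Benjamini-Hochberg over 45037 probe sets), with 2 residual and 2.56 prior degrees of freedom. It was tested on simulated data. For gene counts the probe set with the highest mean was read from that fit, with no filter on dim probe sets.

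Named genes were all members, Glyr1, Pou5f1, Sox2, Nanog and up to 3 higher and 3 lower called genes of each list by smallest p. Etv5, Egr1 and further immediate early genes were added to these after their values were seen. Members, lists, motifs and alternatives were chosen with earlier results of these data known. Alternatives were other normalizations, probe set choices, variance models, a stricter threshold, a replicate block and arrays left out. Replicate numbers did not pair the samples (correlation of same-numbered deviations -0.145, across probe sets).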

Additional observations from a re-analysis of the deposited data

How the results depend on the processing

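The directions of the members' brightest probe sets did not turn in any of 16 settings. Many of these could not turn them. Variance models, replicate blocks, the stricter threshold, the dim filter and the fit by brightest probe set leave a difference as it is. Centring and spike-in scaling shift all differences alike. The number of calls over all probe sets moved by over 1.5 times in 11 of the 16 settings. Over all probe sets 12705 were called, against 7425 and 6779 when fitted per gene by the brightest probe set and by the mean of probe sets, which test fewer features. The counts were 39746 with spike-in scaling, 21102 with centring on genes, 1893 without moderation, 3737 at an adjusted p under 0.01, 4887 with the replicate block and 2060 to 4237 with 1 array left out. Member probe sets called higher were 4, and 2 with spike-in scaling, 1 without moderation and 2 to 4 with 1 array left out. Those called lower were 9, and 23 with spike-in scaling, 18 with centring on genes, 1 without moderation, 5 at the stricter threshold, 5 with the replicate block and 2 to 4 with 1 array left out. The 3 member genes called higher were 1 without moderation and 2 to 3 with 1 array left out. The 2 called lower were 4 after quantile normalization, 7 with spike-in scaling, 7 with centring on genes, 5 with the trend option, 1 with any array left out and 0 without moderation, a linear model in which 3 had an unadjusted p under 0.05, as in limma. Pathway list genes called higher were 36, and 15 with spike-in scaling, 8 without moderation, 23 at the stricter threshold and 15 to 22 with 1 array left out; those called lower were 11, and 43, 1, 4 and 1 to 7 in the same order, 19 with centring on genes and 6 with the replicate block.

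Signs turned for 7 probe sets. With spike-in scaling Spred2 1436892_at and Ptpn12, both called higher at 0.51, stood at -0.02 and -0.03, and Spred1 1428777_at (-0.35) and 1443652_x_at (-0.48) and Dusp7 1460393_a_at (-0.54), none of them called as deposited, turned too. With centring on genes this held for 1443652_x_at (-0.08) and 1460393_a_at (-0.14). Leaving out an array turned 1460116_s_at (-0.20 to 0.11), 1452911_at (-0.31 to 0.06), 1443652_x_at (-0.15 to 0.28) and 1460393_a_at (-0.07 to 0.08). Every turned sign came with a constant shift, which turns small differences by construction, or with 1 array left out. Why the numbers of calls moved was not tested. Of all calls 50.2% were higher as deposited, 22.1% with centring on genes, which shifted the median by -0.14, and 3.79% with spike-in scaling, which shifted it by -0.54. A crossed replicate block and centring on genes were added after seeing the data; the crossed block, tried because same-numbered deviations correlated at -0.145, gave 3 member probe sets higher and 8 lower. Dim probe sets limit what can be read from Spred1, and no detection calls were used.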
